A study of Homo sapiens with 4 samples.

Results

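The microRNAs miR-221-3p and miR-222-3p were measured in MG and non-MG cells, which are subpopulations of the human colon cancer line HCT116. They were chosen because they come from 1 locus, carry 1 seed and are linked to invasion, and they are 2 of the 939 miRNAs on the array, of which 851 are human. MG cells are the highly migratory cells, which crossed a transwell membrane in repeated rounds of selection, and non-MG cells are the low migratory cells, which stayed on its upper side. RNA of each subpopulation was hybridised to 2 single-colour Agilent miRNA arrays, and the comparison asked which miRNAs differ between cells of high and low migratory capacity. The labels number the arrays 1 and 2 in each group and do not say that they came from separate cultures, so that p-values measure only the spread between these samples, which may be technical. Both subpopulations stem from 1 cell line that received no other treatment according to the labels.

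A miRNA is cut from a hairpin within a longer primary transcript. Its seed, bases 2 to 8, pairs with target mRNAs and lowers their translation or stability, and the other strand of the hairpin is usually the less abundant arm. The genes MIR221 and MIR222 lie in tandem on the X chromosome and are transcribed together. In several epithelial cancers the pair is known as a repressor of the cell cycle inhibitor CDKN1B and has been tied to proliferation and invasion.

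In the RefSeq annotation of GRCh38.p14 the mature miR-221-3p lies at chrX:45746180-45746202 and miR-222-3p at chrX:45747036-45747056, both on the minus strand. The genes lie within the long non-coding RNA gene MIR222HG, with MIR222 upstream of MIR221, and 833 bases separate the mature sequences. The sequences are shown because the 2 miRNAs have the same seed, here in capitals, and could be told apart on the array only by the bases after it.
hsa-miR-221-3p: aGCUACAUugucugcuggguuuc
hsa-miR-222-3p: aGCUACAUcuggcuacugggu
The first 8 bases are identical. No other human mature miRNA in the RefSeq table had these seed bases. Beyond the seed the longest run that both share is 6 bases, in capitals in the next pair of lines, and begins at base 15 of miR-221-3p and at base 16 of miR-222-3p.
hsa-miR-221-3p: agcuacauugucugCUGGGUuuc
hsa-miR-222-3p: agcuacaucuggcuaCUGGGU
The mature sequences are 23 and 21 bases long. The opposite arm miR-222-5p, shown because it was also on the array and has another seed, lies at chrX:45747073-45747094 on the minus strand.
hsa-miR-222-5p: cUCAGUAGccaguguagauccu
The opposite arm of the other hairpin, miR-221-5p, was also on the array.

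All 4 arrays lay on 1 slide, with non-MG RNA in its row 1 and MG RNA in its row 2, so that the position on the slide cannot be told apart from the group. The scanner flagged 118 to 135 miRNAs as detected per array, and 8.71% to 11.1% of miRNA spots were well above background. Among 5 miRNAs of colon epithelium, miR-200c-3p, miR-141-3p and miR-200b-3p were detected on all 4 arrays, and miR-192-5p and miR-194-5p were detected on 0 arrays. Of 9 miRNAs typical of liver, neurons, muscle, blood cells and fibroblasts, 8 were detected on 0 arrays, and miR-145-5p was detected on 3 arrays, both non-MG arrays and MG array 1.

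Both members were detected on all 4 arrays. miR-221-3p gave a lower signal in MG cells and miR-222-3p a higher one, and neither difference passed the test. The signal of a miRNA is the sum of the background-subtracted intensities of those of its probes that stand above 3 times their scanner error, divided by a factor that brings every array to the same 75th percentile, taken over miRNAs detected throughout. With RNA from whole cultures, fewer cells with a miRNA and less of it per cell cannot be told apart.

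For miR-221-3p the unscaled signals of non-MG cells were 120.1 and 130.3, and those of MG cells were 99.9 and 109.2. After scaling they were 113.7 and 137.4 in non-MG cells against 98.3 and 111.2 in MG cells. The groups did not overlap, but the nearest arrays, non-MG 1 and MG 2, were only 1.02-fold apart, and the 2 non-MG arrays were 1.21-fold apart. The scanner error of a single signal was 8.71% to 9.64%, which is wider than the gap between the groups.

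The mean scaled signal of miR-221-3p was 126 ± 16.7 (SD, n = 2) in non-MG cells and 105 ± 9.13 (SD, n = 2) in MG cells. The log2 fold change, MG over non-MG, was -0.26 with a standard error of 0.15 and an adjusted p of 0.211 in limma over 57 human miRNAs. This is a ratio of geometric means of 0.836, with a 95% confidence interval from 0.680 to 1.03. The standard error and interval rest on 1 variance that limma pooled over the 57 miRNAs, not on the spread of miR-221-3p alone. The unpaired test named in the study's figure legends, which uses the miRNA's own spread, gave an adjusted p of 0.454. In the limma comparison 8 of the 57 miRNAs were called lower in MG cells at an adjusted p under 0.05. This is a background of 14.0%, and miR-221-3p was not among the 8. The 8 became 3 without non-MG 1, 0 without non-MG 2, with 11 miRNAs at an unadjusted p under 0.05 in either direction, and 4 without MG 2. The split of the 14 calls, 6 higher and 8 lower, also turned with the scaling, to 7 and 4 when arrays were scaled on their median and to 6 and 5 after quantile normalization. Non-overlapping groups with MG lower were seen for 40.4% of the 57, so that this pattern is frequent in these arrays. The median log2 change over the 57 was -0.08, and 16 of them had a more negative change than miR-221-3p.

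For miR-222-3p the unscaled signals of non-MG cells were 34.7 and 31.6, and those of MG cells were 38.8 and 41.8. After scaling they were 32.8 and 33.3 in non-MG cells against 38.1 and 42.6 in MG cells. The groups did not overlap, with MG higher, and the nearest arrays, non-MG 2 and MG 1, were 1.14-fold apart. The scanner error of a single signal, 10.5% to 12.2%, is close to this gap.

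The mean scaled signal of miR-222-3p was 33.1 ± 0.352 (SD, n = 2) in non-MG cells and 40.3 ± 3.13 (SD, n = 2) in MG cells. The unscaled signal of miR-222-3p did not reach 50 on any array, so it was outside the 57 miRNAs tested. The study asked for 50 in at least 1 sample in its results, and in at least 50% of samples in its methods. With a minimum of 20 in place of 50, 91 human miRNAs were tested. The log2 fold change of miR-222-3p was then 0.28 with a standard error of 0.16 and an adjusted p of 0.229 in limma. This is a ratio of 1.22 with a 95% confidence interval from 0.979 to 1.51. Here too the standard error came mainly from a variance pooled over the tested miRNAs. The unpaired test gave an adjusted p of 0.375. Of the 91 miRNAs, limma called 5 higher in MG cells, a background of 5.49%, and miR-222-3p was not among them. The 5 became 3 without MG 1 and 0 without non-MG 1 or non-MG 2, with 20 and 13 miRNAs at an unadjusted p under 0.05 in either direction. Non-overlapping groups with MG higher were seen for 16.5% of the 91. The median log2 change over the 91 was -0.09, and 7 of them had a more positive change than miR-222-3p.

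**Figure D1:**
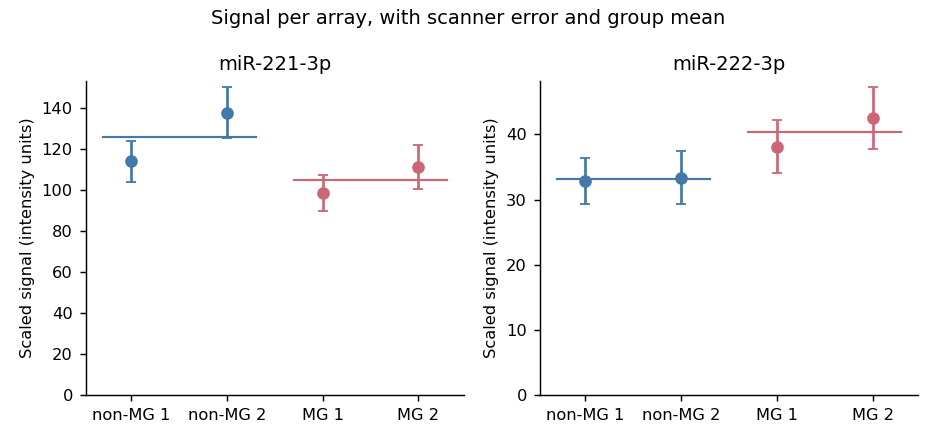
Scaled signal in intensity units (y axis, from 0) of miR-221-3p and miR-222-3p on each of the 4 arrays (x axis). Points are arrays, bars are the scanner error of the signal and lines are group means; the MG points of miR-221-3p lie at 98.3 and 111.2, below those of non-MG, and the MG points of miR-222-3p at 38.1 and 42.6, above those of non-MG.

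Among the 91 miRNAs the changes ran from -0.93 to 1.28 on the log2 scale. The call closest to 0 among miRNAs lower in MG cells had a log2 change of -0.47, and the one closest to 0 among those higher in MG cells had 0.44. Both members lay inside these values, on opposite sides of 0. Their confidence intervals reached across 0, and an interval of this width does not show that either miRNA was at an equal level in the 2 subpopulations.

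**Figure D2:**
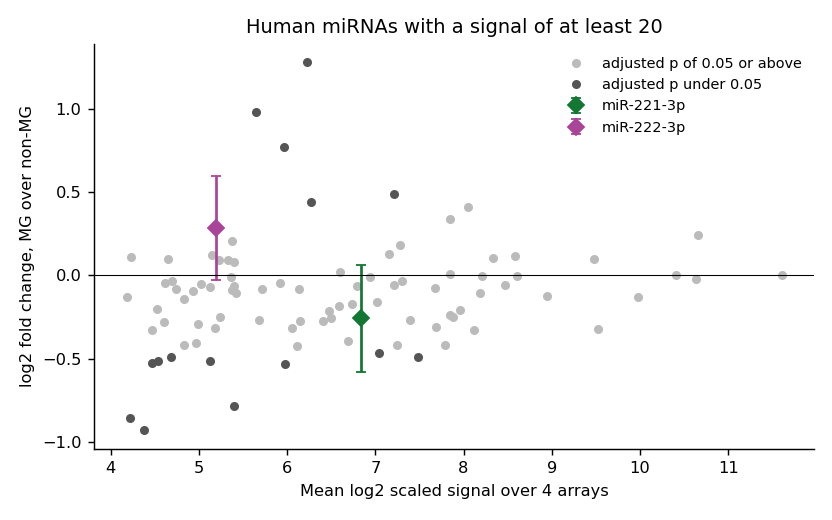
Log2 fold change, MG over non-MG (y axis), against the mean log2 scaled signal over 4 arrays (x axis) for the 91 human miRNAs with an unscaled signal of at least 20. Dark points have a limma adjusted p under 0.05, diamonds are the 2 members with 95% confidence intervals, and both intervals cross 0.

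Each member was read by 2 probes with 8 spots each, and the probes did not contribute alike. Both probes of miR-221-3p stood above 3 errors on every array. Its dim probe had scaled signals of 17.8 and 16.5 in non-MG cells and 13.6 and 10.5 in MG cells, a ratio of 0.697 with no overlap between groups. Its bright probe had 95.9 and 120.9 in non-MG cells and 84.7 and 100.6 in MG cells, a ratio of 0.857. The scaled groups overlapped on the bright probe, where MG 2 was above non-MG 1. Before scaling they did not, with 101.3 and 114.7 in non-MG cells and 86.1 and 98.9 in MG cells. The bright probe gave 5.39 to 9.55 times the signal of the dim one, so that whether the main probe of miR-221-3p separates the groups depends on the scaling.

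For miR-222-3p a single probe carried the whole signal. Its other probe read 0.867 and 1.08 in non-MG cells and 1.16 and 2.25 in MG cells before scaling, 0.720 to 1.24 times its error, with 0 of 8 spots well above background on any array. The probe that carried the signal was 8.20 to 9.52 times its error, with 8 of 8 spots well above background on each array. Over the spots not marked as outliers, its median spot signal was 63.6 and 72.1 in non-MG cells and 74.0 and 77.4 in MG cells. The spots of 1 array spread more widely than the medians of the 4 arrays, from 15.1 to 93.4 on non-MG 2 and from 55.0 to 111.1 on MG 2.

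The opposite arms were at or near background. miR-221-5p was detected on 1 array only, MG 1, where 1 of its 2 probes read 5.53 before scaling, 4.08 times its error. The same probe read 3.38 and 2.81 on the non-MG arrays and 4.67 on MG 2, which is 1.84 to 2.88 times its error, so that the flag on MG 1 marks a small step over a threshold. miR-222-5p was not detected on any array, and the signals of all 4 of its probes were negative after background subtraction. No change of these arms between groups can be read at this signal.

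**Figure D3:**
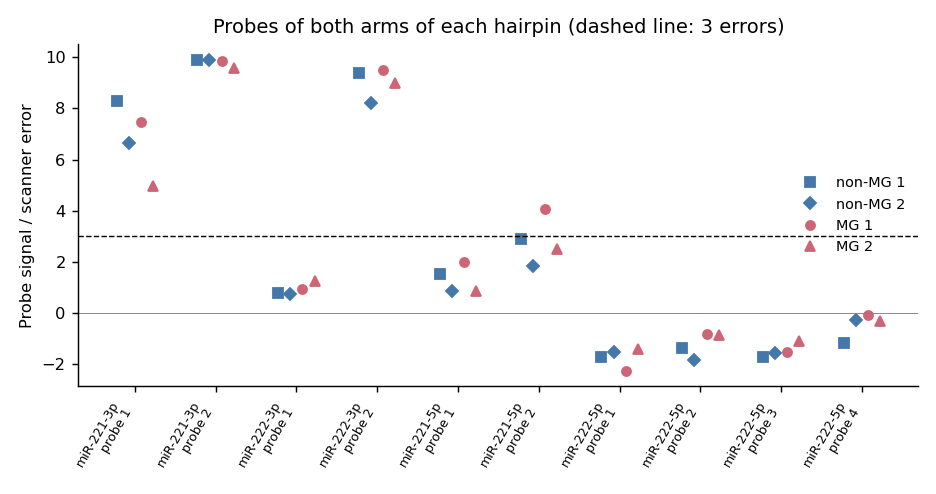
Probe signal divided by its scanner error (y axis) for every probe of miR-221-3p, miR-222-3p and their opposite arms (x axis), 1 point per array. The dashed line marks 3 errors: both probes of miR-221-3p and 1 probe of miR-222-3p lie above it on all 4 arrays, 1 probe of miR-221-5p does so on MG 1 at 4.08, and the probes of miR-222-5p lie below 0.

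The ratio of the 2 members was taken within each array, where scaling between arrays cancels. Probes differ in brightness, so the ratio does not give the amount of one miRNA relative to the other, and only its difference between arrays was read. The ratio of miR-221-3p to miR-222-3p was 3.46 and 4.12 in non-MG cells and 2.58 and 2.61 in MG cells. Both MG arrays lay below both non-MG arrays, and the MG arrays were close together.

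The mean ratio was 3.79 ± 0.466 (SD, n = 2) in non-MG cells and 2.59 ± 0.0251 (SD, n = 2) in MG cells. On the log2 scale the difference, MG minus non-MG, was -0.54, a factor of 0.687. The two-sided exact permutation test gave p = 0.333, which is the smallest value that 2 against 2 arrays allow, so the test could not separate the groups. Over all 6555 pairs of the 115 human miRNAs detected on all 4 arrays, the ratio was without overlap between the groups in 55.9% of pairs and differed at least 1.5-fold in 20.9%. The ratio of the members belonged to the first class and, with a factor of 1.46 between the groups, not to the second. With the bright or the dim probe of miR-221-3p alone over the bright probe of miR-222-3p, the factor was 0.704 or 0.573, again without overlap.

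Pairs of miRNAs that are cut from 1 primary transcript elsewhere in the genome were set beside the members. Of 25 such pairs listed, 13 had both miRNAs detected on all 4 arrays. These 13 are not independent, since miR-17-5p, miR-25-3p, miR-99b-5p and miR-200b-3p each belong to more than 1 of them. The size of their log2 ratio difference between groups ran from 0.08 to 0.51 with a median of 0.25, against 0.54 for miR-221-3p and miR-222-3p, and 0 of the 13 had a larger one. This order depended on single arrays: 1 of the 13 pairs had a larger difference without non-MG 1, 1 without non-MG 2, where the members had 0.42 and miR-17-5p with miR-18a-5p had 0.73, and 4 without MG 1. The groups did not overlap for 6 of the 13 pairs, beside 55.9% of all 6555 pairs of detected human miRNAs. The nearest in size were miR-17-5p with miR-18a-5p at 0.51 and miR-23b-3p with miR-27b-3p, 2 miRNAs of the cluster the study went on to examine, at 0.51. The log2 changes of the 2 miRNAs had opposite signs in 4 of the 13 pairs, as they had for miR-221-3p and miR-222-3p. How often signs are opposite over all pairs was not counted. These pairs are a description of the arrays, since the differences among pairs were not tested.

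**Figure D4:**
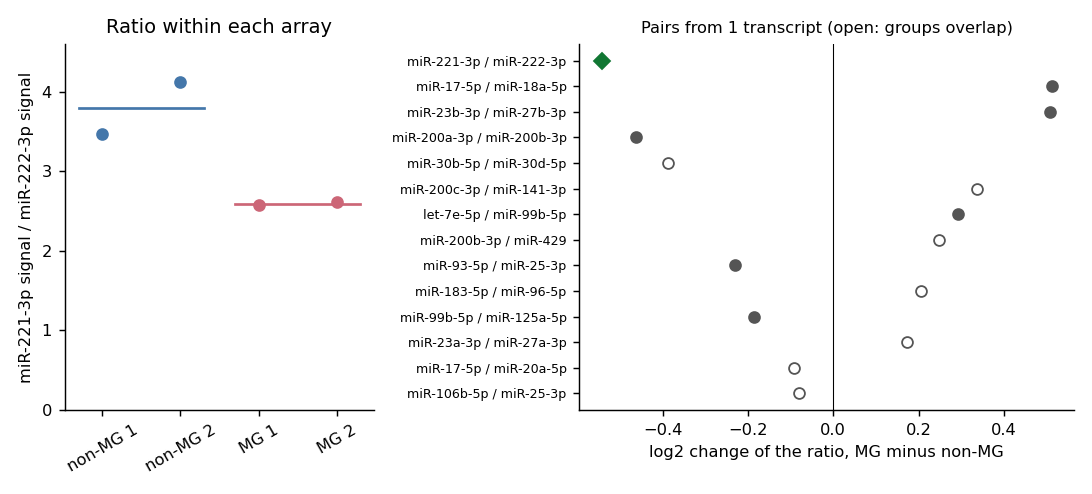
Left, the ratio of miR-221-3p to miR-222-3p signal on each array (y axis, from 0), with group means, where non-MG cells have 3.46 and 4.12 and MG cells 2.58 and 2.61. Right, the log2 difference of the ratio, MG minus non-MG (x axis), for the members (diamond) and for 13 other pairs cut from 1 transcript each, where open circles mark pairs whose groups overlap; with all 4 arrays the members lie at -0.54.

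The profile of a miRNA over the 4 arrays was compared with that of each member by the root mean square difference of log2 scaled signals, each centred on its own mean. Of 56 other tested miRNAs, the 3 most like miR-221-3p were let-7c-5p at 0.07, miR-1246 at 0.08 and miR-31-5p at 0.08. These 3 had MG over non-MG ratios of 0.828, 0.841 and 0.750. That they were lower in MG cells like the member follows from choosing them by likeness on the same arrays. Of the 57 tested miRNAs, the 3 most like miR-222-3p were let-7e-5p at 0.07, miR-320d at 0.08 and miR-24-3p at 0.09. Their ratios were 1.14, 1.09 and 1.26, a direction that again follows from the choice. The 2 members were 0.29 apart from each other, and 45 of the 56 other miRNAs were closer to miR-221-3p than miR-222-3p was. Seen from miR-222-3p the distance was nearer the middle, with 32 of the same 56 miRNAs closer to it than miR-221-3p was.

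A list of 24 miRNAs associated with migration and with the epithelial-mesenchymal transition, not counting the members, gives the wider setting. Of these, 16 were detected on all 4 arrays and 14 passed the minimum of 20. In limma over the 91 miRNAs, 2 of the 14 were called lower in MG cells and 0 higher. The background was 10 of the 91, or 11.0%, called lower. At an unadjusted p under 0.05, 26 of the 91 miRNAs passed in either direction. The first called lower was miR-181a-5p, with scaled signals of 27.3 and 23.1 in non-MG cells and 14.0 and 13.6 in MG cells. Its log2 change was -0.86, with an adjusted p of 3.15e-05 in limma. The other was miR-200a-3p, with 29.4 and 31.7 in non-MG cells and 25.7 and 18.4 in MG cells. Its log2 change was -0.49, with an adjusted p of 0.0272 in limma. Of the other listed members of the miR-200 family, the brighter miR-200b-3p and miR-200c-3p had log2 changes of only -0.03 and -0.06. For miR-429 and miR-141-3p the log2 changes were -0.28 and -0.39. Without non-MG 1 or non-MG 2 the adjusted p in limma was 0.125 and 0.0565 for miR-181a-5p and 0.305 and 0.451 for miR-200a-3p, and without MG 2 it was 0.631 for miR-200a-3p. The median log2 change of the 14 was -0.23 beside -0.09 for all 91, a difference that was not tested. The list does not sort its miRNAs by whether they favour or oppose migration, and it holds several members of the miR-200 family. The median therefore has no reading for migration. Among the 14 was miR-31-5p, with 159.1 and 194.1 in non-MG cells and 125.8 and 138.0 in MG cells and an adjusted p of 0.0547 in limma. With the minimum of 50, which miR-181a-5p and miR-200a-3p did not reach, 11 of the list were tested and another 2 were called lower, miR-31-5p at an adjusted p of 0.0313 and miR-141-3p at 0.0411 in limma. The background at that minimum was 8 of 57 miRNAs, or 14.0%, called lower. Leaving out 1 array, the adjusted p of miR-31-5p in limma was 0.0634 without non-MG 1, 0.349 without non-MG 2 and 0.134 without MG 1. For miR-141-3p it was 0.225 without non-MG 1, 0.373 without non-MG 2 and 0.746 without MG 2. Which members of the list were called thus depended on the signal minimum and on single arrays. The size of the change was steadier for miR-181a-5p. Its log2 change was -0.74, -0.98, -0.88 and -0.84 without non-MG 1, non-MG 2, MG 1 and MG 2. For miR-200a-3p it was -0.55, -0.44, -0.73 and -0.25 in the same order.

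The scanner files also hold a total per miRNA, and for miR-222-3p that total was not its own. It was 154.7 and 162.0 in non-MG cells and 144.2 and 151.1 in MG cells, against 31.6 to 41.8 from the probes of miR-222-3p. On 3 arrays the surplus equalled the whole signal of miR-221-3p, with 120.1 on non-MG 1, 130.3 on non-MG 2 and 109.2 on MG 2. On MG 1 it was 105.4, the sum of the 99.9 of miR-221-3p and the 5.53 of miR-221-5p.

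A total above the sum of own probes was present for every detected miRNA whose first probe did not stand above 3 errors. These were 31, 27, 37 and 31 miRNAs on the arrays non-MG 1, non-MG 2, MG 1 and MG 2. It was present for 0 of the other detected miRNAs. Such a surplus concerned 48 of the 142 miRNAs detected on at least 1 array. Whether it equalled the signal of other miRNAs was looked at only for the members and their opposite arms. Read from these totals, the ratio of miR-221-3p to miR-222-3p was 0.776 and 0.805 in non-MG cells and 0.693 and 0.723 in MG cells, and the log2 change of miR-222-3p was -0.32 in place of 0.28. The table of values that the authors deposited for the series held the sum of own probes for both members, within 2.58e-05%, and was free of this surplus.

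**Figure D5:**
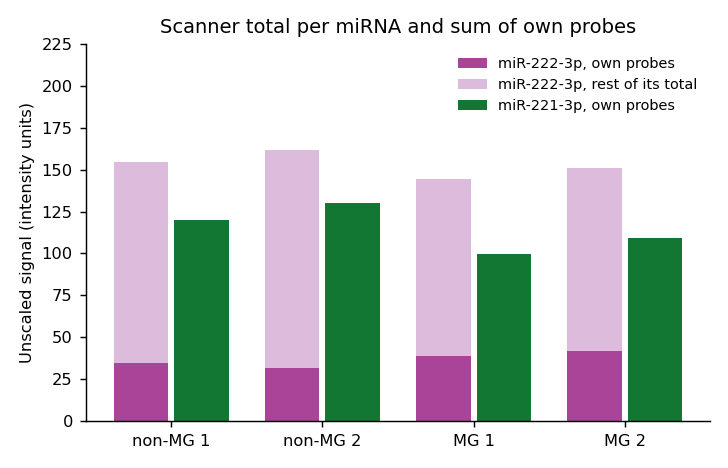
Unscaled signal in intensity units (y axis, from 0) on each array (x axis): the scanner total of miR-222-3p, split into its own probes and the rest, beside the sum of own probes of miR-221-3p. The rest equals the miR-221-3p signal on 3 arrays and is 5.53 above it on MG 1.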

How the data were processed

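The authors deposited the scanner output of 4 one-colour Agilent arrays, made with Feature Extraction 10.7.1.1 per the file headers, and a table with 1 intensity per miRNA and array. These intensity values are background-subtracted and not normalized between arrays. The paper names GeneSpring and gives no normalization or test for the arrays.

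The signal of a miRNA was the sum of its probes above 3 errors, scaled so that 116 miRNAs, those detected on every array, had 1 common 75th percentile. Values under 1 were raised to 1 before taking log2. Human miRNAs were tested when detected and at 50 or more, unscaled, on at least 1 array. limma 3.58.1 (lmFit, eBayes, Benjamini-Hochberg) was run in R 4.3.3, without a replicate block. It was tried on simulated data with 1 spread for all miRNAs and with shifts larger than the changes of the members. Such data cannot show how the fit behaves at changes as small as theirs or where spreads differ between miRNAs. The ratio was tested by exact permutation. Python 3.11.15 with pandas 2.3.3 handled the tables.

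Named miRNAs are the members, the opposite arms, any miRNA of the same seed, the 3 most similar profiles per member, and members of the migration list and transcript pairs where values are compared. Members and lists were chosen with earlier results of these data known. The migration miRNAs and the nearest transcript pairs given by name were picked after their values were seen. Alternatives were other signal summaries, background correction, scalings, floors, filters and tests, the block, and each array left out. The fits with a minimum of 20 together with another choice were added after seeing the data. The number of arrays limits the precision.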

Additional observations from a re-analysis of the deposited data

How the results depend on the processing

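Neither miR-221-3p nor miR-222-3p passed an adjusted p of 0.05 in limma or in the unpaired test named in the study's figure legends, under any alternative run. The adjusted p ran from 0.116 to 1 for miR-221-3p and from 0.142 to 1 for miR-222-3p. Under normexp, which adds 50 to every spot signal, the log2 change of miR-221-3p reversed to 0.093, also with a minimum of 20, and that of miR-222-3p moved to 0.19. With the scanner total per miRNA that of miR-222-3p reversed to -0.32, also with a minimum of 20. By its dim probe alone, miR-221-3p had -0.52. The ratio is taken within an array, so 11 of its 21 alternatives could not move it. In the 10 that could, the log2 difference was between -0.80 and -0.10. Leaving out 1 array gave -0.39 to -0.12 for miR-221-3p, 0.21 to 0.36 for miR-222-3p and -0.67 to -0.42 for the ratio. Without non-MG 2 the log2 change of miR-221-3p was -0.12.

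The number of miRNAs called was 14 of 57, 6 higher and 8 lower in MG cells. It was 8 with the replicate number as a replicate block, 6 with processed spot signals, 6 without normalization, 9 with a signal of 50 on all 4 arrays, 1 with no minimum signal and 1 with no filter. It was 0 with the scanner total, with 28 at an unadjusted p under 0.05, and 0 in the legends' unpaired test, with 7. Leaving out 1 array gave 3 to 11, with 5 without non-MG 1 and 3 without non-MG 2. The other alternatives gave counts within 1.5 times of 14. The split stayed at 6 higher and 8 lower with the authors' values, the sum over all probes and a floor of 10. It changed in others, such as to 9 higher and 2 lower under normexp, 7 and 4 under median scaling, and 6 and 5 under quantile normalization. Processed spot signals and no normalization each gave 3 and 3. With the replicate block the adjusted p in limma was 0.160 for miR-221-3p and, with a minimum of 20, 0.191 for miR-222-3p. At that minimum the block raised the calls, to 6 higher and 16 lower against 5 and 10 without it. Deviations of same-numbered arrays correlated at 0.48 across 57 miRNAs, which are not independent. With 2 pairs and no shared day or culture in the labels, the arrays share only a number. Scaling on the 75th percentile of all miRNAs was not run, since that percentile falls among undetected miRNAs. The dim probe of miR-222-3p alone gives no value, because it was below 3 errors on all 4 arrays, and quantile normalization over the 57 leaves miR-222-3p out.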
